A study of Mus musculus with 12 samples.

Results

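Titin, the calcium release channel of heart muscle and 8 other genes of striated muscle were followed through the m6A peak lists of mouse lung. The genes were Ttn, Tcap, Actn2, Xirp1, Xirp2, Ryr2, Casq2, Trdn, Myh6 and Perm1, and 9 of these 10 had a peak, among 14988 genes on which a peak was called in either list. They were chosen by their peaks in these same lists, with the values already known, so the number of their peaks and the difference between the lists are a description. A peak was taken when the list assigned it to one of the genes or when it was called on that gene.

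N6-methyladenosine (m6A) was mapped by MeRIP-seq, in which RNA fragments bound by an antibody to m6A (IP) are sequenced beside the same RNA without the pull-down (input). Lung tissue came from female BALB/c mice aged 6 to 8 weeks. OVA mice were sensitized with ovalbumin in alum on days 0 and 7, breathed a 3% ovalbumin aerosol from day 14 to day 20 and gave tissue on day 21, and PBS mice were given phosphate-buffered saline as controls. Each group had 3 mice with an IP and an input library each, but the deposited data are 1 peak list per group. The mice are therefore pooled, and no difference between the lists has a replicate check. Each peak carries the fold enrichment of IP against input and a log10 p value. Read counts of single peaks are not given there, so the depth behind a value is unknown and no interval is given.

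Striated muscle contracts when calcium, released from the sarcoplasmic reticulum through ryanodine receptors, lets myosin pull on actin within the sarcomere. Titin spans from the Z-disc, where actin filaments are anchored, towards the middle of the sarcomere, and its transcript is among the longest known. In mice, a sleeve of heart muscle continues from the left atrium along the pulmonary veins into the lung.

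The 10 genes carried 32 peaks of the 27292 in the OVA list and 70 of the 26102 in the PBS list. Trdn, Xirp2, Tcap and Myh6 had peaks in the PBS list only, which held for 4 of the 10 genes and for 7.22% of all genes with a peak. None had peaks in the OVA list only, against 10.8% of all genes. Xirp1, Perm1, Ttn, Ryr2 and Casq2 had peaks in both lists. Actn2, whose alpha-actinin cross-links actin in the Z-disc, had no peak in either list. A gene without a peak may still be expressed, since a peak needs both the modification and enough reads. Fewer muscle cells in the tissue, less RNA per cell and less modification cannot be told apart in these lists.

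A peak counted as matched when its exonic blocks overlapped those of a peak in the other list. In the PBS list, 46 of the 70 peaks (65.7%) overlapped no OVA peak, while 14.5% of all PBS peaks did not. In the OVA list, 4 of the 32 peaks (12.5%) overlapped no PBS peak, beside 19.4% of all OVA peaks. Ttn gave most of the peaks. Without it, 22 of 30 PBS peaks and 2 of 9 OVA peaks were unmatched. The OVA count depended on the overlap required: when it had to reach 50% of each peak's length, 23 of 32 OVA and 61 of 70 PBS peaks were unmatched, beside 31.4% of all OVA and 28.3% of all PBS peaks. No peak on the 10 genes had a counterpart with the same start and end, and over all peaks 89.7% (OVA) and 89.3% (PBS) had none. The members were chosen by this contrast, so nothing is read from these shares.

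**Figure D1:**
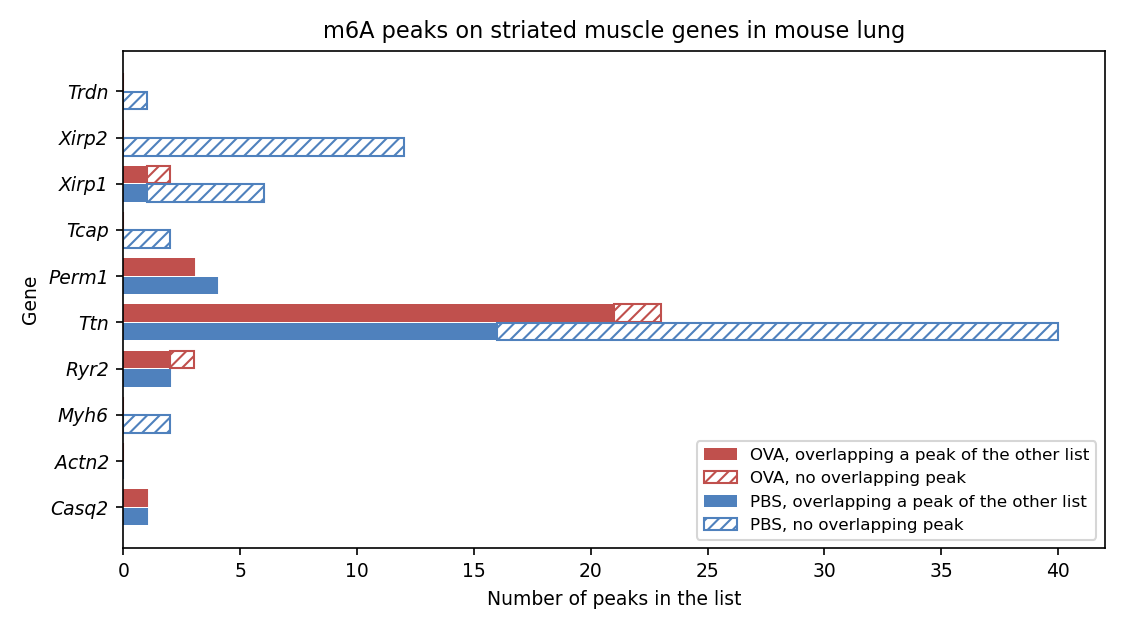
Number of peaks on each of the 10 genes in the OVA list (red) and the PBS list (blue). Filled bars are peaks that overlap a peak of the other list and hatched bars are peaks that do not, which make up 46 of the 70 PBS peaks and 4 of the 32 OVA peaks.

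Ttn, which encodes the elastic filament titin, had 23 OVA peaks and 40 PBS peaks. In each list this was the largest number on any gene. The exonic length under the peaks was 3857 bp in the OVA list and 13935 bp in the PBS list, so PBS peaks were wider as well as more numerous, with a median span of 302 bp against 152 bp. Of the OVA peaks, 21 lay within or across a PBS peak, and these shared 16 PBS peaks. The 24 other PBS peaks had no counterpart.

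The exon with the most Ttn peaks in both lists was exon 154 of a transcript with 191 exons, on chromosome 2. It held 15 of 23 OVA and 17 of 40 PBS peaks, between 76737513 and 76752570. All 15 OVA peaks there overlapped a PBS peak, and 7 of the PBS peaks overlapped none. The exon was thus marked in both groups, over 2999 bp in the OVA list and 7081 bp in the PBS list. Its strongest peak by p value was a PBS peak of 1561 bp at 76746271 to 76747831, with a fold enrichment of 9.39 and a log10 p of -265. In the OVA list the same stretch was split into 3 peaks with fold enrichments of 8.01, 6.42 and 4.06, and the lowest log10 p among them was -50.1. A second wide PBS peak, at 76749990 to 76751070 and 10.6 in fold enrichment, also covered 3 OVA peaks, of 5.65, 5.75 and 4.00.

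Exon 132 held 2 OVA and 4 PBS peaks, exon 167 held 1 and 2, and exon 163 held 2 of each. Other Ttn exons differed more between the lists. Exon 186, towards the 3′ end, held 5 PBS peaks between 76709870 and 76713980 and no OVA peak. Their fold enrichments ranged from 2.99 to 8.56 and their log10 p from -15.0 to -108, so these were not peaks at the margin of the list. Exons 45, 148 and 156 had 1 PBS peak each and no OVA peak, with log10 p values of -48.3, -37.4 and -37.2. The OVA list alone had a peak in exon 159, at 76732225 to 76732425, with a fold enrichment of 2.65 and a log10 p of -3.25. Its only other unmatched Ttn peak was in exon 163, with a fold enrichment of 4.00 and a log10 p of -3.21.

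Near the 5′ end of Ttn, exon 27 held 2 OVA and 3 PBS peaks. The OVA peak at 76944438 to 76944559 had a fold enrichment of 22.6, the highest of all OVA peaks on the 10 genes, and the PBS peak over it had 8.33. The next OVA peak, from 76945098, had 18.5 against 8.54. At both places the OVA fold enrichment was the larger, while the PBS peak had the lower p. The log10 p was -9.65 (OVA) against -50.9 (PBS) at the former and -5.35 against -24.0 at the latter. The third PBS peak, at 76945368 to 76945759 and 7.28 in fold enrichment, overlapped no OVA peak. In the last exon of a shorter Ttn transcript with 45 exons, the PBS list had 2 peaks, with fold enrichments of 8.88 and 2.60, and the OVA list had none. Both had little support by p value, with log10 p of -4.33 and -2.93, at percentiles 18.1 and 8.21 of the PBS list. A PBS peak in exon 113 of a transcript with 347 exons, at 76863340 to 76863521, had a fold enrichment of 3.07 and a log10 p of -5.07. The PBS list also had the only Ttn peak in the 3′ UTR, at 76704009 to 76704130, with a fold enrichment of 2.78. Its log10 p was -2.56, at percentile 5.21 of the PBS list.

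**Figure D2:**
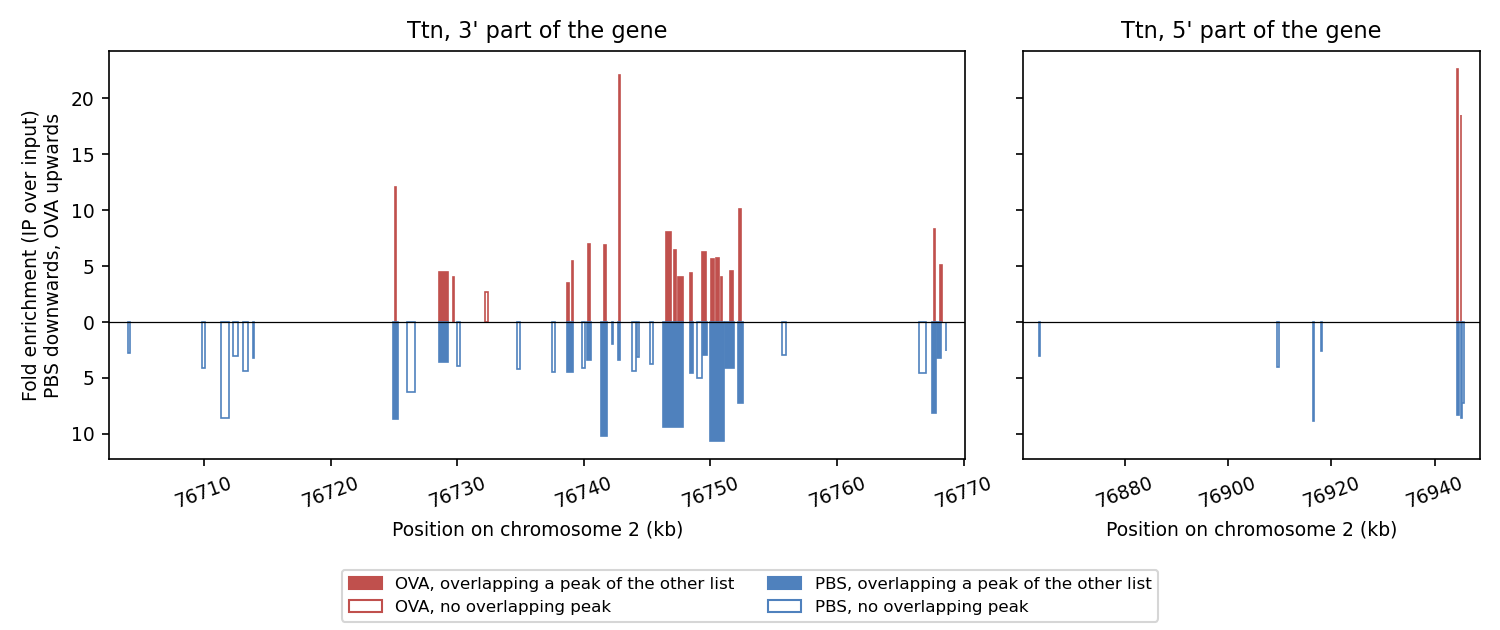
Ttn peaks by position on chromosome 2 in kb, drawn from start to end, with the fold enrichment of IP over input as height, upwards for OVA and downwards for PBS; the gene runs from right to left and the stretch between the panels holds no peak. Filled peaks overlap a peak of the other list, and open peaks, 24 in the PBS list and 2 in the OVA list, do not.

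Tcap encodes telethonin, which caps titin at the Z-disc. It had 2 PBS peaks in its 3′ UTR on chromosome 11 and no OVA peak. The peak at 98384597 to 98384775 had a fold enrichment of 3.29 and a log10 p of -36.0, and the peak at 98384834 to 98384953 had 3.83 and -16.5. Their fold enrichments were thus at percentiles 30.6 and 36.6 of the PBS list, below the middle.

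Xirp2 and Xirp1 encode actin-binding Xin-repeat proteins of cell junctions and Z-discs in striated muscle. Xirp2 had 12 PBS peaks and no OVA peak. The 12 peaks covered 2778 bp, and 9 of them lay in exon 9 of 11, between 67508217 and 67514778 on chromosome 2. The highest fold enrichment of any peak on the 10 genes was 26.6, at 67508217 to 67508668, with a log10 p of -8.12. The next, at 67512620 to 67513340, had 25.2 and a log10 p of -12.0. These values stood at percentiles 97.2 and 96.6 of the PBS list. A group of 3 peaks lay in the 3′ UTR between 67525566 and 67526435, with fold enrichments of 4.93, 8.55 and 4.93. Most Xirp2 peaks had little support by p value, with a median log10 p of -5.24 where that of all PBS peaks was -21.4. An FDR under 0.05 was missed by 2 of them, at 67511123 and 67511722.

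Over all 14988 genes, the number of PBS peaks minus the number of OVA peaks was largest for Ttn, at 17, and Xirp2 followed, at 12. Muc16, a mucin, came next at 11. The largest difference in the other direction was on Apob, a lipoprotein gene with 13 OVA peaks and 0 PBS peaks. These ranks were looked up after the values were seen.

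Xirp1 had 2 OVA peaks and 6 PBS peaks on chromosome 9. Both lists had a peak starting at 120018695 in exon 2 of 3, with a fold enrichment of 10.8 and a log10 p of -3.08 for OVA, and 4.81 and -4.89 for PBS. The second OVA peak, at 120018336 to 120018457, had a fold enrichment of 5.31 and no PBS counterpart. The 5 other PBS peaks lay nearer to the 3′ end, 3 of them in the 3′ UTR. Of these, the peak at 120013934 to 120014294 had the highest fold enrichment, 7.68, and the lowest log10 p, -12.5. Xirp1 was thus marked at 1 place in both lists and at other places in each list alone, while its 3′ UTR had peaks in the PBS list only.

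**Figure D3:**
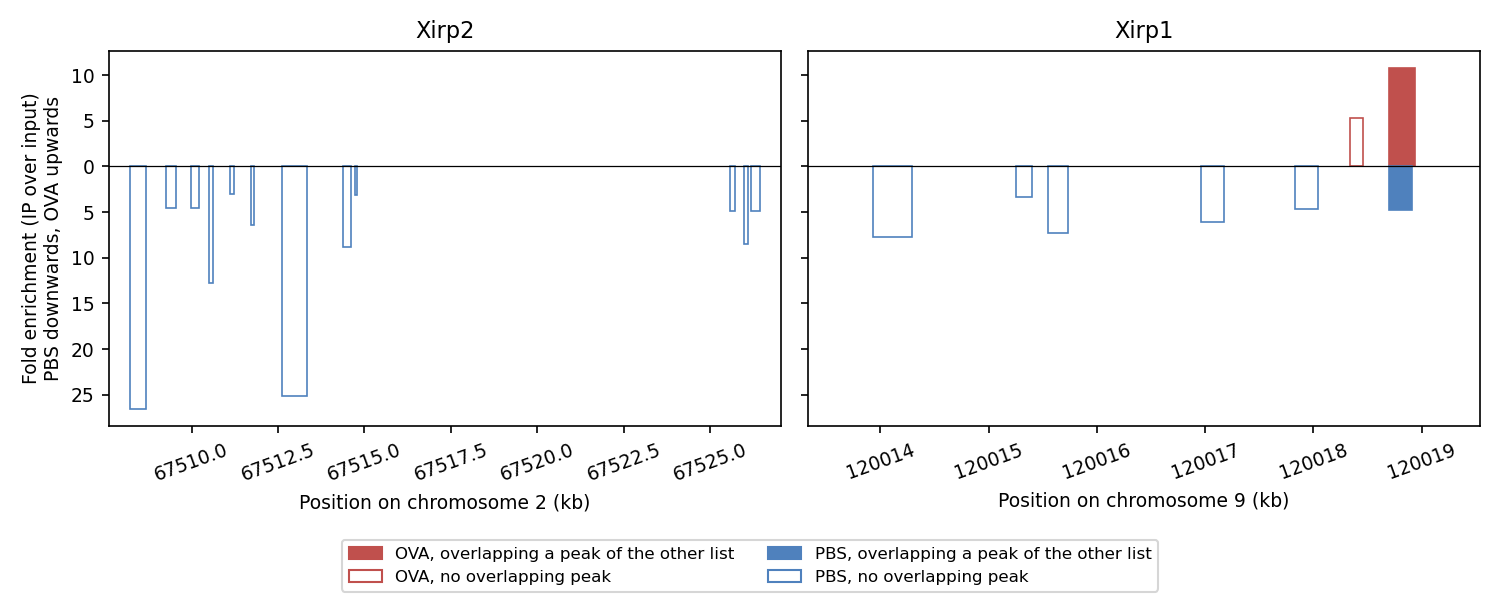
Peaks on Xirp2 (chromosome 2) and Xirp1 (chromosome 9) by position in kb, with the fold enrichment of IP over input as height, upwards for OVA and downwards for PBS. Open peaks overlap no peak of the other list; Xirp2 has 12 open PBS peaks, and the filled peak of Xirp1 is the only place marked in both lists.

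Ryr2 is the ryanodine receptor through which calcium leaves the sarcoplasmic reticulum of heart muscle. It had 3 OVA and 2 PBS peaks on chromosome 13. In the 3′ UTR the OVA peak, at 11553521 to 11553852, had a fold enrichment of 7.04 and the PBS peak, at 11553491 to 11553792, had 4.93. Both were assigned to the transcript Gm47487 but called on Ryr2. In exon 89 of 105, the OVA peak at 11595565 to 11597077 had 10.8 and the PBS peak at 11595655 to 11597077 had 5.75. At both sites the PBS peak had the lower p. The log10 p was -41.0 (PBS) against -10.6 (OVA) in the 3′ UTR and -42.6 against -31.5 in exon 89. A further OVA peak in exon 90, at 11595235 to 11595416, had 5.48 and no PBS counterpart. Its log10 p was -3.85, at percentile 14.1 of the OVA list. Ryr2 thus shared 2 of its 3 OVA peaks with the PBS list. It was the only one of the 10 genes with more OVA than PBS peaks, by that weakly supported peak in exon 90.

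Casq2 encodes cardiac calsequestrin, which stores calcium inside the sarcoplasmic reticulum. Its single site, in the 3′ UTR on chromosome 3, was found in both lists. The OVA peak at 102145621 to 102145860 had a fold enrichment of 21 and a log10 p of -10.4, and the PBS peak at 102145473 to 102145830 had 7.59 and -39.1. The OVA value stood at percentile 92.8 of its list and the PBS value at 61.8.

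Trdn encodes triadin, which ties calsequestrin to the ryanodine receptor. It had a single PBS peak, in the 3′ UTR at 33196064 to 33196275 on chromosome 10, and no OVA peak. Its log10 p was -7.70, at percentile 31.7 of the PBS list, while its fold enrichment stood at percentile 73.4. The calcium store therefore had its channel and its buffer marked in both lists and the protein that joins them in the PBS list only.

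Myh6 encodes the alpha myosin heavy chain, the motor of the thick filament in atrial muscle and adult mouse heart. It had 2 PBS peaks on chromosome 14 and no OVA peak. The peak in the 5′ UTR, at 54965486 to 54965845, had a fold enrichment of 3.30 and a log10 p of -109, at percentile 74.8 of the list. The peak at 54944400 to 54944461, in exon 36 of 39, had 2.25 and -10.4. The peak with the higher fold enrichment also had the lower p value.

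Perm1 encodes a regulator of energy metabolism in muscle that acts with PGC-1 and ERR factors. It had 3 OVA and 4 PBS peaks on chromosome 4, and each overlapped a peak of the other list. The OVA peak at 156215956 to 156217651 began in the 5′ UTR and had a fold enrichment of 12.5 and a log10 p of -88.4. It overlapped 2 PBS peaks with 3.16 and 2.82, whose log10 p were -3.94 and -4.24. At the next site, the OVA peak from 156218632 had 6.26 and -25.4 and the PBS peak from 156218454 had 5.72 and -5.57. Perm1 was thus the only one of the 10 genes whose shared peaks all had the lower p in the OVA list. The remaining peak of each list was assigned to Perm1 but called on AW011738, with fold enrichments of 3.30 (OVA) and 2.26 (PBS), and the overlap there was 2 bp.

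Where overlapping peaks of both lists were called on the same one of the 10 genes, their values were set side by side in 28 pairs. The pair assigned to Perm1 but called on AW011738 was left out of these. It had the higher fold enrichment and the lower p in the OVA list. Fold enrichment was higher in the OVA list in 19 pairs (67.9%), beside 60.8% of the 26091 pairs over all genes. The p value was lower in the PBS list in 25 pairs (89.3%), beside 40.7% of all pairs. The share by fold enrichment thus lay near that of all pairs, and the share by p value lay well above it. Of the 28 pairs, 21 lay on Ttn, and pairs of 1 transcript are not independent.

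On Ttn, the PBS peak had the lower p in 21 of 21 pairs, with a median log10 p of -62.7 against -9.65. Its fold enrichment was higher in the OVA list in 12 of them, and the median log2 ratio of OVA over PBS was 0.16. The medians over the same pairs lay in the other order, at 6.24 for OVA and 8.17 for PBS. These pairs hold only 16 distinct PBS peaks, so a PBS peak over several OVA peaks was counted repeatedly. With each matched peak counted once, the medians were 6.24 for OVA and 5.91 for PBS. The median log10 p was then -9.65 for OVA and -49.3 for PBS. In 6 pairs, which hold only the 2 widest PBS peaks, the PBS value was always the higher. In the 15 pairs with narrower PBS peaks, the OVA value was higher in 12. On the other genes, fold enrichment was higher in the OVA list in 7 of 7 pairs, with medians of 10.8 and 4.93. The p was lower in the PBS list in 4 of 7, the exceptions being the 3 pairs called on Perm1. A p value depends on the number of reads as well as on the enrichment, and the part of read number in these differences was not tested. Nothing is read from these shares, since the genes were chosen by the same contrast.

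**Figure D4:**
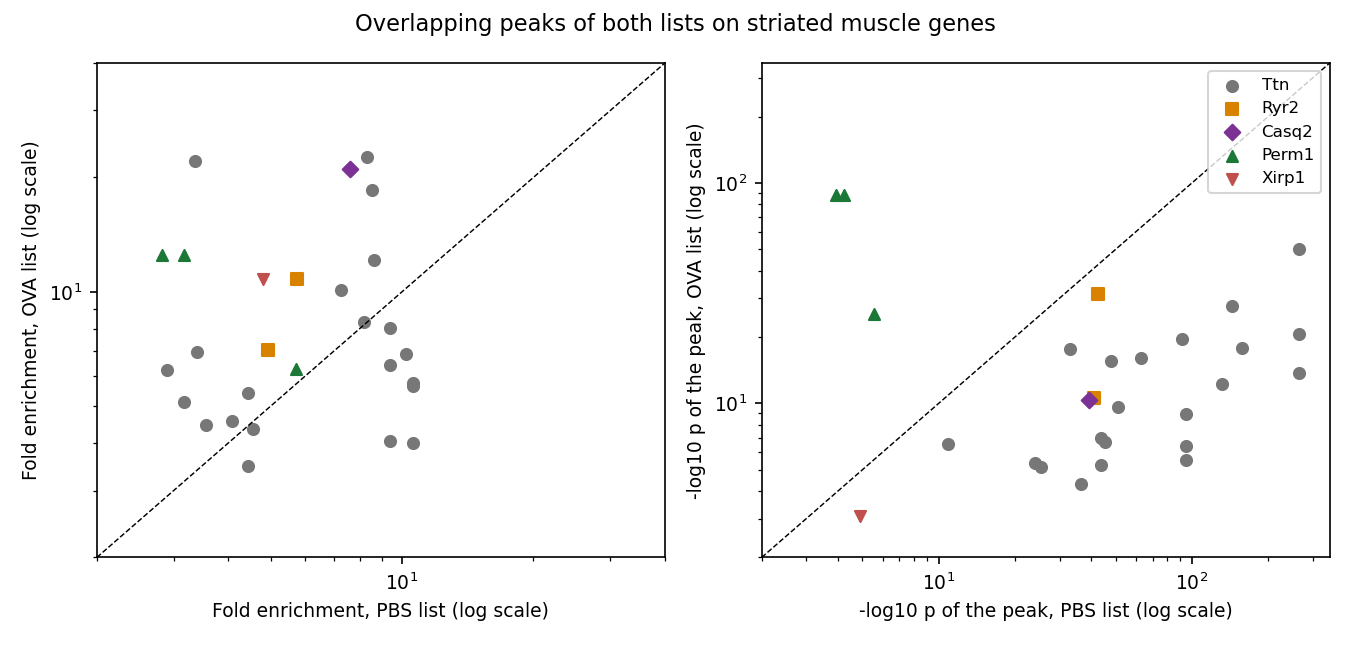
Fold enrichment (left) and -log10 p (right) of the 28 pairs of overlapping peaks called on the same one of the 10 genes. The PBS list is on the horizontal and the OVA list on the vertical axis, both on log scales. The dashed line marks equal values. In the right panel 25 of the 28 points lie below the line and the 3 above it are Perm1, while in the left panel 19 lie above it.

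Within each list, peaks on the 10 genes were of ordinary height. The median over their fold enrichments was 6.25 in the OVA list, where that of all peaks was 5.59, and 4.47 in the PBS list, where that of all peaks was 5.44. The median log10 p was -9.29 against -24.0 in the OVA list and -22.2 against -21.4 in the PBS list. By p value the OVA peaks lay at a median percentile of 33.4 of their list and the PBS peaks at 50.6 of theirs. This order came from Ttn. Without it, the OVA peaks lay at a median percentile of 35.7 and the PBS peaks at 25.9, with a median log10 p of -10.4 and -5.91, so the order was reversed.

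Most of the peaks lay outside the UTRs. By the authors' annotation, 29 of 32 OVA peaks (90.6%) and 56 of 70 PBS peaks (80.0%) lay in exons outside the UTRs, where 35.7% and 35.9% of all peaks of the lists did. The 3′ UTR held 2 OVA peaks and 12 PBS peaks, or 6.25% and 17.1%, where it held 52.7% of all peaks in each list. Without Ttn, 6 of 9 OVA peaks and 17 of 30 PBS peaks were in exons. Ttn itself had 23 of 23 OVA peaks and 39 of 40 PBS peaks in exons.

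Called and assigned gene were not the same for 16 OVA peaks (50.0%) and 27 PBS peaks (38.6%), where the shares over all peaks were 23.7% and 24.0%. On Ttn, 14 OVA and 25 PBS peaks were assigned to a nonsense-mediated decay transcript of Fkbp7, a neighbouring gene for a peptidyl-prolyl isomerase. By assigned gene alone, Ttn would have 9 OVA peaks and 15 PBS peaks.

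The promoters of 7 of the 10 genes were in the RefSeq table of GRCm38.p6, and the 250 bases before the start were searched on both strands, a step chosen after the peaks were seen. The MEF2 consensus, bound by a factor of muscle genes, was found in 3 of the 7, on Xirp2, Ttn and Casq2, and in 2.92% of all 32851 promoters. The M-CAT element CATTCC was found on Myh6 alone and in 12.6% of all. The CArG box (1.47% of all promoters), CAGCTG (13.0%) and TATAAA (12.4%) were found on none of the 7, and no promoter of the 7 held more than 1 match. A match is a description of the letters and not a site of binding. The 3 promoters with a MEF2 match are shown 5′ to 3′, with the match in capitals.
Xirp2 chr2:67445752-67446001, plus strand: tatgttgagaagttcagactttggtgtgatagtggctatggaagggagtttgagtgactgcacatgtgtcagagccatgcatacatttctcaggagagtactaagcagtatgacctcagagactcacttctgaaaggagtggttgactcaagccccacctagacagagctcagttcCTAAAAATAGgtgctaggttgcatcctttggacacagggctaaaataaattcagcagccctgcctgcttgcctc
Ttn chr2:76982548-76982797, minus strand: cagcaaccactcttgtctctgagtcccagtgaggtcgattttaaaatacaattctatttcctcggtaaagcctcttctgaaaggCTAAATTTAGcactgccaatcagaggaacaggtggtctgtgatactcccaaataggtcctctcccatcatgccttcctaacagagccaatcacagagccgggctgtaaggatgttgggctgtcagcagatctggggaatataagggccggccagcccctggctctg
Casq2 chr3:102086165-102086414, plus strand: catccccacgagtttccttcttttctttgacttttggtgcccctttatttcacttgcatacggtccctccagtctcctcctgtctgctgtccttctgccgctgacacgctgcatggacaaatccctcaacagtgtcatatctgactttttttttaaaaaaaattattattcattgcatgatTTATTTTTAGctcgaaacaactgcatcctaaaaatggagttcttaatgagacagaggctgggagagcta

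Beyond the 10 genes, 8 lists of striated muscle genes, written with earlier results known, held 154 further genes. Of these, 58 had peaks in both lists, 19 in the PBS list only, 4 in the OVA list only, and 73 in neither. Among the 81 with a peak, the PBS-only share was 23.5% and the OVA-only share 4.94%, where they were 7.22% and 10.8% over all genes. Of their 180 PBS peaks, 54 (30.0%) had no OVA counterpart, beside 14.5% of all PBS peaks. Of their 152 OVA peaks, 27 (17.8%) had no PBS counterpart, close to the 19.4% of all OVA peaks. Genes with a PBS peak only thus outnumbered those with an OVA peak only here too. The genes were listed with earlier results known and come from the same unreplicated peak lists. This is therefore a description and not a second check. Of their 131 pairs of overlapping peaks, 61.1% had the higher fold enrichment in the OVA list, near the 60.8% of all pairs. The p was lower in the PBS list in 49.6%, beside 40.7% of all pairs. That share was higher still for the smooth muscle markers (56.5%) and lung markers (56.0%) followed below. The values given for single genes are the highest fold enrichment of the gene in each list. The OVA and PBS values of a gene can lie at different sites, as they do for Gata6, Esrrg and Myh7b.

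Around Ryr2, Casq2 and Trdn, 22 further genes of calcium release and handling were followed, of which 11 had peaks in both lists, 4 in the PBS list only, 1 in the OVA list only and 6 in neither. Jph2, which holds the sarcoplasmic reticulum to the surface membrane, had the highest fold enrichment, 54.7 in the OVA list against 39.9 in the PBS list. Jph1 had 19.5 and 18.3, the calcium channel gene Cacna1c 17.0 and 18.8, and Srl 10.6 and 14.2. The PBS-only genes with the lowest p were Pln and Sln, small inhibitors of the calcium pump, and Atp2a1, a calcium pump of skeletal muscle. Their highest fold enrichments were 2.69, 8.14 and 3.45. Of the 2 PBS peaks on Atp2a1, 1 overlapped an OVA peak called on another gene. Cacna1s had an OVA peak only, with a fold enrichment of 3.02. Ryr1, Casq1 and Atp2a2 had no peak in either list.

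Around Myh6, the thick filament and M-line list had 6 genes with peaks in both lists, 2 in the PBS list only, 0 in the OVA list only and 11 in neither. Myh7, the beta myosin heavy chain, had 5 PBS peaks and no OVA peak, with a lowest log10 p of -16.9. Myl4, the atrial essential light chain, had 1 PBS peak with a fold enrichment of 2.47 and a log10 p of -38.2. These proteins join Myh6 in the thick filament and were likewise without an OVA peak. Myh7b had up to 14.9 in the OVA list against 17.8 in the PBS list, Obsl1 12.3 and 16.3, and Myom1 13.9 and 12.8. Myl2, Myl3, Myl7 and Mybpc3, which are abundant in heart muscle, had no peak in either list.

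On the thin filament, 3 of 18 genes had peaks in both lists, 3 in the PBS list only, 1 in the OVA list only and 11 in neither. Lmod2, which lengthens actin filaments, had 2 PBS peaks with a lowest log10 p of -51.2. The troponin T genes Tnnt2 and Tnnt1 had 1 PBS peak each, with fold enrichments of 4.49 and 12.3 and log10 p of -13.8 and -3.66. Neb, for nebulin, had an OVA peak only, with a fold enrichment of 11.3 and a log10 p of -3.03. Tmod1, which caps actin filaments, had up to 13.3 in the OVA list against 9.10 in the PBS list. Actc1, Acta1, Tnni3 and Tnnc1 had no peak in either list.

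Beside Tcap, Actn2, Xirp1 and Xirp2, the list for the Z-disc, costamere and intercalated disc had 28 genes, 13 with peaks in both lists, 5 in the PBS list only, 0 in the OVA list only and 10 in neither. Myoz2, a calcineurin-binding Z-disc protein, had a PBS peak with a fold enrichment of 4.44, Synpo2l had 2 of up to 26.6, and Jup, for plakoglobin, had 1 of 1.51. The desmosomal gene Dsp, also used in epithelium, had up to 23.9 in the OVA list against 22.3 in the PBS list. Ldb3 had 18.3 and 8.91, and Flnc 14.8 and 10.8.

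Muscle protein turnover and chaperones had 9 genes with peaks in both lists, 1 in the PBS list only, 1 in the OVA list only and 4 in neither. Trim63, a ubiquitin ligase of the sarcomere, had a PBS peak of 10.9 with a log10 p of -2.91. The small heat shock gene Hspb7 had an OVA peak of 2.29 with a log10 p of -12.7. The other sarcomeric ligase Trim55 had 10.8 in the OVA list against 28.6 in the PBS list, Fbxo32 24.4 and 27.6, Klhl41 2.02 and 19.7, and Bag3 14.4 and 16.8. The Klhl41 OVA peak missed an FDR under 0.05, with a log10 p of -2.01 against -9.7 for PBS. On Trim55 the log10 p was -2.87 (OVA) and -8.79 (PBS). Of the 17 genes of muscle energy metabolism to which Perm1 is related, 6 had peaks in both lists and 11 in neither, so that none differed in this respect. Esrrg had 23.1 in the OVA list against 6.42 in the PBS list, Ppargc1b 15.4 and 13.8, Ppara 14.5 and 15.0, and Fndc5 12.3 and 12.0. The genes Ckm and Ckmt2, creatine kinases, and the oxygen carrier Mb had no peak.

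Among 21 cardiac and muscle regulators, 10 had peaks in both lists, 3 in the PBS list only, 1 in the OVA list only and 7 in neither. The PBS-only genes were the cardiac transcription factors Tbx20, Shox2 and Nkx2-5, with fold enrichments of 38.0, 26.6 and 11.4. Their lowest log10 p values were -12.0, -8.12 and -3.07. Rbm24, a muscle splicing factor, had an OVA peak only, of 2.91. Gata6 had 43.6 in the OVA list against 11.0 in the PBS list, Tbx5 32.4 and 24.2, and Tbx18 11.3 and 28.6, and these factors also act outside the heart. Nppa and Nppb, for the natriuretic peptides, had no peak in either list. Of 14 genes of the skeletal muscle lineage, Dmd, for dystrophin, had 2 PBS peaks of up to 2.89 and the other 13, Myod1, Myog and Pax7 among them, had no peak. The lists thus held peaks on regulators of heart muscle and none on the skeletal muscle regulators followed.

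Most smooth muscle and other lung cell markers with a peak had it in both lists, as did 58 of the 81 striated muscle genes. Of 14 smooth muscle markers, 8 had peaks in both lists, 1 in the PBS list only, 2 in the OVA list only and 3, Acta2, Actg2 and Pcp4l1, in neither. Among the 11 with a peak, the PBS-only share was 9.09% and the OVA-only share 18.2%, beside 7.22% and 10.8% of all genes. Cnn1 had a PBS peak of 1.36, and Smtn and Tagln had OVA peaks of 1.61 and 1.27. Synm had up to 17.8 in the OVA list against 19.3 in the PBS list, Itga8 15.0 and 14.1, Lmod1 14 and 8.42, and Mylk 6.53 and 5.91. Of 16 markers of lung epithelium and endothelium, 13 had peaks in both lists and Sftpc, Scgb3a2 and Epcam in neither. Foxj1 had 15.2 and 17.3, Nkx2-1 9.18 and 11.4, Cdh5 11.1 and 9.50, and Tek 10.1 and 9.75. The part of the amount of striated muscle in the sampled tissue in the peaks of the 10 genes was not tested.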

How the data were processed

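The authors used FASTP for trimming, HISAT2 for mapping to the Ensembl mouse genome, exomePeak for peak calling and ChIPseeker for annotation, and the versions of these tools are not given in the sources used here. The deposited fold enrichment is the authors' ratio of IP over input in a peak. The deposited scores are log10 p and log10 FDR values from the authors' caller. How the mice of a group were combined is not given in the sources used here. Coordinates are those of the lists, and of peaks called on protein-coding RefSeq genes 97.7% (OVA) and 97.8% (PBS) overlapped that gene on GRCm38.p6.

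Members and gene lists were chosen with earlier results of these data known. Peaks belonged to a gene when called on it or assigned to it. Other genes were taken by the called gene only. Peaks of both lists matched when their exonic blocks shared at least 1 bp, without strand, which the lists give only for the assigned gene. Percentiles are within a list. No test across mice was possible. The genes named are the 10 members, and for each list the 4 with the highest fold enrichment at an FDR under 0.05, up to 3 with a peak in either list only, and defining markers without a peak. A gene that this rule names is not reported here. Alternatives were other overlap rules, an FDR under 0.05, a fold enrichment of at least 2, and other gene matches. Python 3.11.15, pandas 2.3.3, numpy 2.4.6 and matplotlib 3.10.9 were used, and the overlap code was tested on simulated data.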

Additional observations from a re-analysis of the deposited data

How the results depend on the processing

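No paired analysis was possible because each list pools the mice of its group, and for the same reason no mouse could be left out. Of 32 alternatives over 12 results, 25 stayed within 1.5 times the main count. The number of peaks on the 10 genes, 32 OVA and 70 PBS, was 17 and 44 by the assigned gene alone and 12 and 39 on protein-coding transcripts alone, mostly because 14 OVA and 25 PBS peaks on Ttn were assigned to Fkbp7. Peaks without a counterpart, 4 OVA and 46 PBS, became 32 and 70 when start and end had to be identical, a rule that left 89.7% of all OVA and 89.3% of all PBS peaks unmatched. When the overlap had to reach 50% of each peak's length, they became 23 and 61, beside 31.4% and 28.3% of all peaks, and the cause was not tested. The genes with a PBS peak only numbered 4 under every alternative run. Depth per peak is unknown, so weak peaks cannot be weighed against read number.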

Other observations

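Genes with at least 5 more peaks in the PBS list than in the OVA list numbered 12 of 14988, and those with at least 5 more in the OVA list numbered 10. Ttn and Xirp2 were among the 12, and so were Cmya5 with 9 PBS and 4 OVA peaks and Myh7 with 5 and 0, both from the striated muscle lists. Cmya5 encodes myospryn, a large protein of the costamere. Muc16, Pclo, Zdbf2 and Ahnak were also among them. This look at all genes was chosen after the values were seen.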
